A study of Homo sapiens with 10 samples.

Results

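miR-224-5p and miR-452-5p are the 5p mature microRNAs of the neighbouring hairpins MIR224 and MIR452, which lie inside the X-linked gene GABRE. They were taken by name (hsa-miR-224-5p and hsa-miR-452-5p) from the deposited small RNA table, where each has 1 row, and make up 2 of its 2576 mature miRNAs. The pair was chosen by its measured levels in these libraries, taken here to be the higher level after IGF2BP1 knockdown than in controls, so that comparison is a description with no p. All 10 libraries came from ES-2, an established human cell line derived from ovarian cancer. There were 4 groups: control siRNA (siC, 2 libraries) and siRNA pools against IGF2BP1 (siIGF2BP1, 2 libraries), IGF2BP2 (siIGF2BP2, 3 libraries) or IGF2BP3 (siIGF2BP3, 3 libraries). The sources used here give neither the number of siRNAs in a pool nor the time after transfection, and the table holds no mRNA from which the knockdown could be read.

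A microRNA is cut from a hairpin in a longer transcript by Drosha and then Dicer, and its mature strand is loaded into an Argonaute protein. There it finds target mRNAs mainly through bases 2 to 8, the seed, and lowers their stability or translation. GABRE encodes the epsilon subunit of the GABA-A receptor, a chloride channel gated by the neurotransmitter GABA. miR-224-5p is best known from liver and other cancers, where it is often raised, and from the ovary, where it acts in granulosa cells. The IGF2BP proteins are a family of RNA-binding proteins that bind many mRNAs and are often raised in tumours, and whether they alter miRNA levels is the question the knockdowns bear on.

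The mature sequences show that the neighbours are unlike each other in the part that selects targets. They are given 5′ to 3′ from RefSeq (GRCh38.p14), with the seed in capitals.
miR-224-5p: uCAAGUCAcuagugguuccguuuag
miR-452-5p: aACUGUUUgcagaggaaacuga
miR-224-3p: aAAAUGGUgcccuagugacuaca
miR-452-3p: cUCAUCUGcaaagaaguaagug
The seeds of miR-224-5p and miR-452-5p hold the same base at 2 of 7 positions, and the longest run of bases that the full sequences share is 4. The seed of miR-224-5p occurs in no other mature miRNA of the RefSeq table. That of miR-452-5p occurs in 2 others, which are shown because they could bind the same seed matches.
miR-4676-3p: cACUGUUUcaccacuggcucuu
miR-892c-3p: cACUGUUUccuuucugagugga
In these cells miR-4676-3p had 3 reads over all libraries and miR-892c-3p had 0, against 631 for miR-452-5p. The sources used here do not name the annotation release behind the deposited table, so the 5′ end counted by the authors may differ from the RefSeq one.

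The hairpins are shown with both mature arms in capitals, as RefSeq places them on GRCh38.p14, both on the minus strand.
MIR452: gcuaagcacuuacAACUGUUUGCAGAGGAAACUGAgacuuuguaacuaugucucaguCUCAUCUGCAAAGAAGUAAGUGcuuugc
MIR224: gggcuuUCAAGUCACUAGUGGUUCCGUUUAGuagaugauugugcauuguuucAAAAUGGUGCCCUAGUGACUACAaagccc
MIR452 spans chrX:151959628-151959712 and MIR224 spans chrX:151958578-151958658, with 969 bases between them. The mature miR-452-5p lies at chrX:151959678-151959699 and miR-224-5p at chrX:151958628-151958652. In GENCODE release 29, GABRE spans chrX:151953124-151974680 on the same strand, and MIR452 lies upstream of MIR224 in its direction of transcription. In the transcript GABRE-201, which has 9 exons, both hairpins sit in intron 6, which is 3978 bases long. GABRE-203 places MIR452 in intron 6 and MIR224 in intron 7. In GABRE-207 MIR452 lies in intron 2 while MIR224 overlaps exon 3, and in GABRE-209 both overlap exon 1. Both hairpins lie outside the other 8 annotated transcripts. These coordinates were not used to count reads, which the authors mapped to hg19.

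The libraries held 462724 to 1269743 miRNA reads, and the siIGF2BP1 libraries were the 2 deepest, with 1269743 and 1096008. The labels' source name separates siC and siIGF2BP1 from siIGF2BP2 and siIGF2BP3, so in comparisons across these blocks whatever that label stands for and the siRNA cannot be told apart. Of 48 marker miRNAs of other cell types and of the imprinted 14q32 cluster, those with a read numbered 31 to 32 in siC libraries, 32 to 34 in those of siIGF2BP1, 14 to 17 after IGF2BP2 knockdown and 17 to 19 after IGF2BP3 knockdown. Their summed share of reads was 0.577% to 0.729%, 0.393% to 0.650%, 0.165% to 0.178% and 0.175% to 0.290% in the same order, and their part in the results was not tested. The 14q32 markers made up 0.146% to 0.400% of reads in siC and siIGF2BP1 and 0.000574% to 0.00164% in the other groups. Marker levels are given as mean normalised counts in siC, siIGF2BP1, siIGF2BP2 and siIGF2BP3 in turn. Far lower in the last 2 groups were miR-451a of red cells (364, 110, 0.636 and 1.58), miR-143-3p of smooth muscle and fibroblasts (1222, 1064, 10.6 and 5.29) and miR-124-3p of neurons (30.4, 32.7, 0 and 0). The blood markers miR-142-5p (424, 397, 489 and 793) and miR-142-3p (35.6, 20.7, 38.9 and 82.9) went the other way, with their highest mean in siIGF2BP3. The fibroblast marker miR-199a-5p was read at similar levels in every group (419, 480, 387 and 439). Also read in every library were the neural markers miR-128-3p (605, 666, 498 and 438) and miR-9-5p (135, 299, 103 and 174). Other markers of the same lists, miR-486-5p (red cells), miR-122-5p (liver), miR-133b and miR-208a-3p (muscle), miR-219a-5p (oligodendrocytes), miR-203a and miR-429 (epithelium) and miR-214-3p (fibroblasts) were at 0 in every library. No list of markers particular to ES-2 was at hand, and the epithelial list reached at most 0.00121% of reads.

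miR-224-5p was the more abundant of the pair and stood highest after IGF2BP1 knockdown. Its normalised read count was 150 and 160 in siC C2 and siC C3, and 366 and 324 in siIGF2BP1 replicates 1 and 2. It was 183, 155 and 135 in siIGF2BP2 replicates 1 to 3 and 112, 121 and 125 in siIGF2BP3 replicates 1 to 3. Both siIGF2BP1 libraries lay above all 8 others, the siIGF2BP2 libraries straddled the controls, and the siIGF2BP3 libraries lay below every other group. The control mean was 155 ± 6.79 (SD, n = 2), and the siIGF2BP1 mean was 345 ± 29.7 (SD, n = 2). The siIGF2BP2 and siIGF2BP3 means were 157 ± 24.0 and 119 ± 6.70 (SD, n = 3 each). Relative to the control mean the knockdown means were 2.22, 1.02 and 0.769. Behind these values stood 91 and 120 reads in siC, 455 and 367 in siIGF2BP1, and 56 to 129 in the other 6 libraries. In siC C2, the 91 reads were 164 per 1000000 reads (95% exact Clopper-Pearson interval 132 to 202), and in siIGF2BP1 replicate 1 the 455 reads were 358 (326 to 393). Such intervals cover counting error only, and in bulk RNA fewer cells with a miRNA and less of it per cell cannot be told apart. By rank of read count, miR-224-5p stood at 122 and 123 in the control libraries, at 95 and 102 after IGF2BP1 knockdown, and at 110 to 124 and 130 to 136 after IGF2BP2 and IGF2BP3 knockdown.

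miR-452-5p was the less abundant member, and its siIGF2BP1 libraries also lay above the rest. Its normalised read count was 80.8 and 75.9 in siC C2 and siC C3, and 157 and 108 in siIGF2BP1 replicates 1 and 2. It was 58.0, 63.0 and 48.3 in siIGF2BP2 replicates 1 to 3 and 59.9, 42.6 and 45.2 in siIGF2BP3 replicates 1 to 3. Both siIGF2BP1 libraries exceeded all 8 others but stood far apart, all 6 libraries of siIGF2BP2 and siIGF2BP3 lay below both controls, and those last groups overlapped. The means were 78.3 ± 3.51 (SD, n = 2), 133 ± 34.7 (SD, n = 2), 56.5 ± 7.45 (SD, n = 3) and 49.2 ± 9.32 (SD, n = 3) in siC, siIGF2BP1, siIGF2BP2 and siIGF2BP3. Relative to the control mean these were 1.70, 0.721 and 0.628. The reads were few, with 49 and 57 in siC, 196 and 123 in siIGF2BP1, and 28 to 41 in the other 6 libraries. For both members the siIGF2BP1 libraries stood above all others, a pattern that 8.66% of the 889 miRNAs tested also had and from which nothing is read, since it was in view when the pair was chosen.

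**Figure D1:**
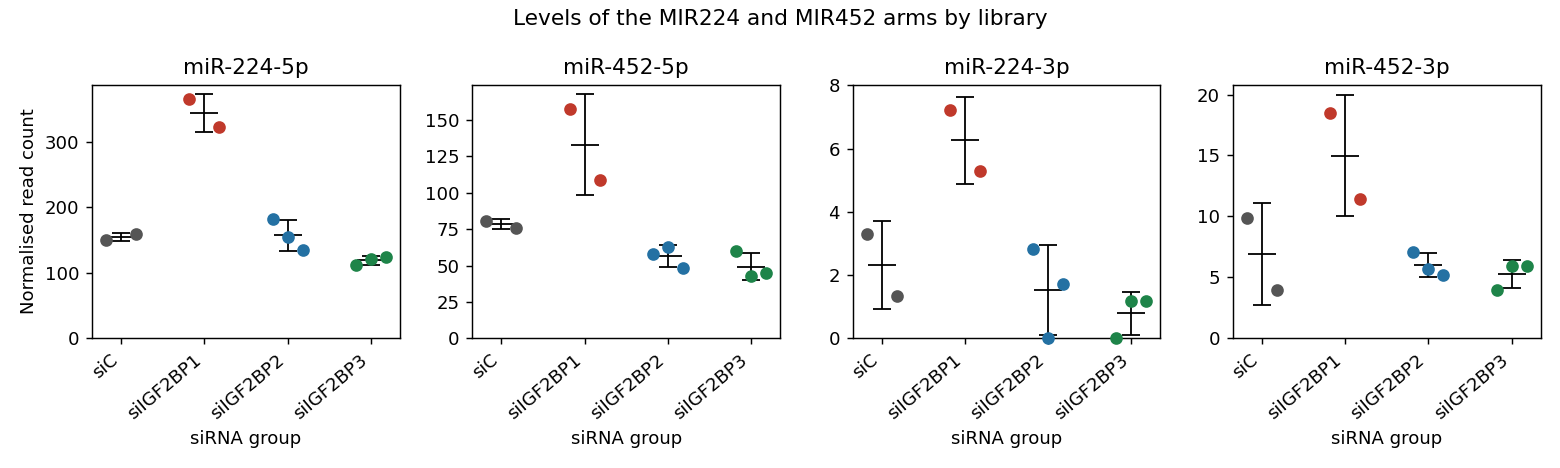
Normalised read count (y axis, each panel on its own scale from 0) of miR-224-5p, miR-452-5p, miR-224-3p and miR-452-3p in each library, by siRNA group (x axis); each point is 1 library, with the group mean and its SD drawn as bars. The siIGF2BP1 libraries sit above all others in each panel, at 366 and 324 for miR-224-5p and at 157 and 108 for miR-452-5p.

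Compared with siC, siIGF2BP1 had more miR-224-5p by a log2 fold change of 1.15 ± 0.19 (SE, 95% interval 0.74 to 1.55), in limma on log2(value + 1). For miR-452-5p the log2 fold change was 0.73 ± 0.26 (SE, 95% interval 0.17 to 1.30). In this comparison 2.47% of all miRNAs tested passed the adjusted threshold of 0.05, 2.14% upward and 0.337% downward, and groups that did not overlap upward, as for both members, occurred in 23.1%. No call is given for the members, which were chosen on these values. Over all miRNAs tested, the median log2 fold change of this comparison was 0.10. The authors' deposited table gives 1.15 for miR-224-5p and 0.77 for miR-452-5p on the log2 scale. The value of miR-224-5p was 0.93 with upper-quartile scaling, 1.10 without siC C2, 1.06 without siIGF2BP1 replicate 1 and 1.23 without siIGF2BP1 replicate 2. That of miR-452-5p was 0.46 without siIGF2BP1 replicate 1 and 0.999 without siIGF2BP1 replicate 2. Both groups carry the same source name, so this comparison does not cross the labelled blocks, but their depths do not overlap.

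miR-452-5p lay below the controls in every IGF2BP2 and IGF2BP3 knockdown library, but neither member passed the test in either comparison. Both comparisons reuse the siC libraries whose values helped to choose the pair, and both cross the source names. Their p-values are therefore descriptions, from which nothing is read. For siIGF2BP2 against siC, the log2 fold change of miR-452-5p was -0.47 ± 0.24 (SE, 95% interval -0.99 to 0.04), with an adjusted p of 0.341 by limma. That of miR-224-5p was 0.01 ± 0.17 (SE, 95% interval -0.36 to 0.38), with an adjusted p of 1 by limma. Here 9.00% of all miRNAs passed, 7.76% downward and 1.24% upward, and in 16.1% every siIGF2BP2 library lay below both controls, as for miR-452-5p. The size of a shift in miR-224-5p is thus bounded by its interval, not shown to be 0, and its sign turned with most other scalings (from -0.11 with TMM to 0.49 with upper-quartile scaling).

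For siIGF2BP3 against siC, the log2 fold change of miR-452-5p was -0.67 ± 0.24 (SE, 95% interval -1.19 to -0.16), with an adjusted p of 0.105 by limma. That of miR-224-5p was -0.38 ± 0.17 (SE, 95% interval -0.75 to -0.01), with an adjusted p of 0.230 by limma. In this comparison 10.6% of all miRNAs passed, 8.66% downward and 1.91% upward, and in 18.1% all siIGF2BP3 libraries lay below both controls, as for both members. With edgeR on the recovered reads miR-452-5p passed (log2 fold change -0.80, adjusted p = 0.0440). That pass carries no weight, because the siC libraries helped to choose the pair. With upper-quartile scaling the log2 fold change of miR-452-5p was -0.088 (adjusted p = 0.869 by limma). With that scaling the sign of miR-224-5p turned, to 0.22. The authors' deposited table gives -0.37 for miR-224-5p and -0.70 for miR-452-5p, the latter with a false discovery rate of 0.328.

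The comparison of siIGF2BP2 with siIGF2BP3 stays within 1 source name, and its fold changes use no library of the contrast that chose the pair. Its standard errors, intervals and p-values come from the fit of all groups together, so they also draw on the spread of those libraries. miR-224-5p was higher in all 3 siIGF2BP2 libraries than in any siIGF2BP3 library, with a log2 fold change of 0.39 ± 0.15 (SE, 95% interval 0.06 to 0.72). It did not pass the adjusted threshold (adjusted p = 0.251 by limma), and 7.31% of all miRNAs had non-overlapping groups in this direction. For miR-452-5p the groups overlapped, and the log2 fold change was 0.20 ± 0.21 (SE, 95% interval -0.26 to 0.66, adjusted p = 0.778 by limma), and 0.089 with upper-quartile scaling. In all, 3.15% of the miRNAs tested passed, 1.69% upward and 1.46% downward.

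Set against the other knockdowns, siIGF2BP1 had more of both miRNAs. Against siIGF2BP2 the log2 fold change was 1.13 ± 0.17 (SE, 95% interval 0.77 to 1.50) for miR-224-5p. It was 1.20 ± 0.24 (SE, 95% interval 0.69 to 1.72) for miR-452-5p. Against siIGF2BP3 the log2 fold change was 1.52 ± 0.17 (SE, 95% interval 1.15 to 1.89) for miR-224-5p. It was 1.41 ± 0.24 (SE, 95% interval 0.89 to 1.92) for miR-452-5p. The shares of all miRNAs that passed were 13.5% against siIGF2BP2 and 14.8% against siIGF2BP3, of which 11.8% and 12.3% were upward, 1.69% and 2.59% downward, and 10.1% were higher in both. Upward without overlap, as both members were, lay 26.2% and 25.8% of all miRNAs. Neither a call nor a p is given for the members, because these comparisons reuse the siIGF2BP1 libraries whose values chose the pair. They also cross the source names, between which the marker miRNAs differed as described above. With upper-quartile scaling the values were 0.44 and 0.72 for miR-224-5p and 0.52 and 0.61 for miR-452-5p, against siIGF2BP2 and siIGF2BP3, and without siIGF2BP1 replicate 1 that of miR-452-5p against siIGF2BP2 was 0.94.

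**Figure D2:**
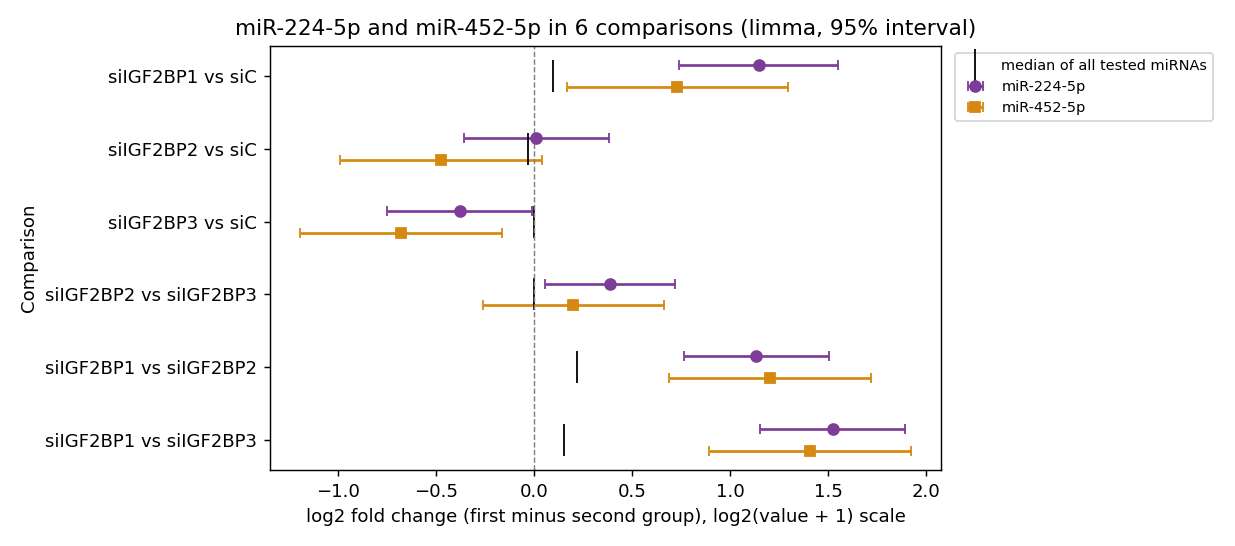
Log2 fold change (x axis, log2(value + 1) scale, first group minus second) of miR-224-5p (circles) and miR-452-5p (squares) in 6 comparisons (y axis), with unadjusted 95% intervals from limma; black ticks mark the median of all miRNAs tested. The comparisons of siIGF2BP1 with siC, siIGF2BP2 and siIGF2BP3 lie to the right of 0, from 0.73 to 1.52.

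How a library is scaled moved these values. The upper quartile of reads per miRNA was 4 to 18 reads over the 1196 miRNAs with any read, so that this scaling rests on thinly counted miRNAs. It moved the median of all miRNAs tested against siC from -0.03 to 0.30 in siIGF2BP2 and from 0.00 to 0.45 in siIGF2BP3. Against siIGF2BP2 and siIGF2BP3 it moved that median in siIGF2BP1 from 0.22 to -0.20 and from 0.16 to -0.31. The direction split of all calls also depended on scaling: in siIGF2BP1 against siC 86.4% of calls were upward as deposited, 70.8% with library totals, 48.0% with TMM and 46.4% with median of ratios. In siIGF2BP1 against siIGF2BP2 it was 87.5% as deposited and 39.2% with the upper quartile, and against siIGF2BP3 82.6% and 35%. Against siC the upward share in siIGF2BP2 went from 13.8% to 59.5% and in siIGF2BP3 from 18.1% to 67.5%, and in siIGF2BP2 against siIGF2BP3 from 53.6% to 29.4%. In siIGF2BP1 against siC, the comparison that chose the pair, miR-224-5p lay between 0.91 (median of ratios) and 1.15 (as deposited) under these scalings. There miR-452-5p went from 0.73 as deposited to 0.50 with median of ratios.

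**Figure D3:**
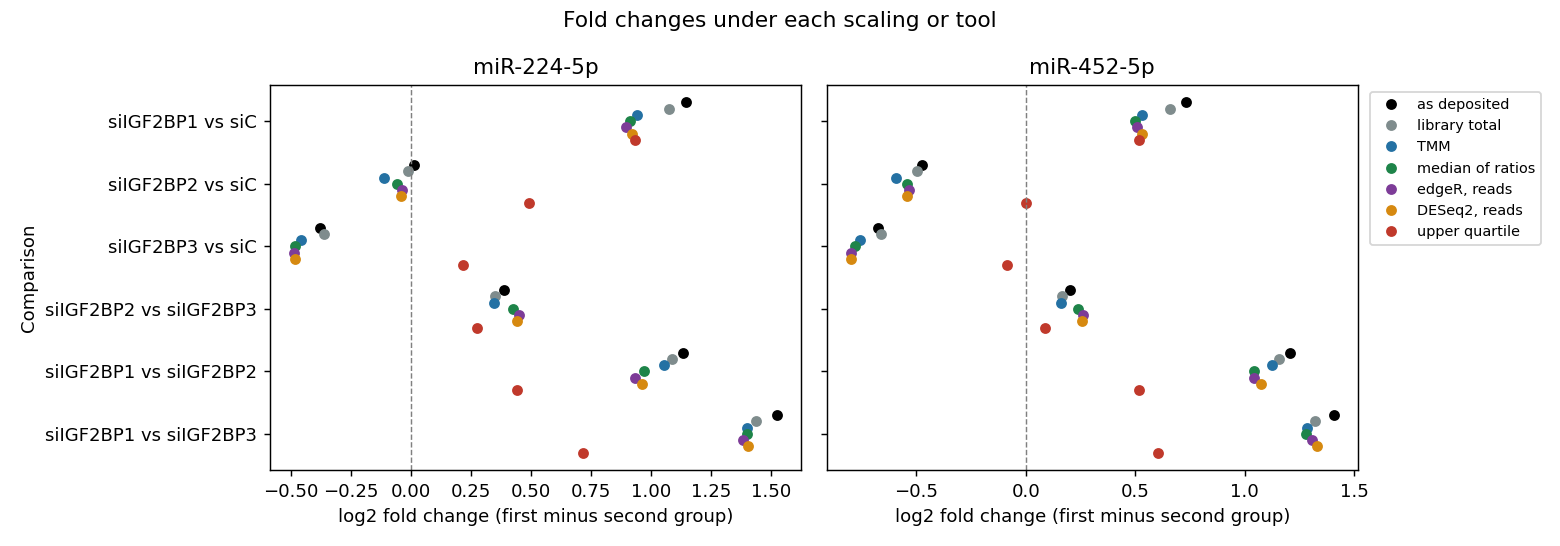
Log2 fold change (x axis) of miR-224-5p and miR-452-5p in 6 comparisons (y axis) as deposited, under 4 other scalings, and with edgeR and DESeq2 on recovered reads; each point is 1 setting. The upper-quartile points stand apart wherever the comparison crosses the source names, for example 0.49 against 0.01 for miR-224-5p in siIGF2BP2 against siC.

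The opposite arms of the hairpins, which are usually degraded after Dicer cutting, were rare. miR-224-3p had 2 and 1 reads in siC, 9 and 6 in siIGF2BP1, 2, 0 and 1 in siIGF2BP2 and 0, 1 and 1 in siIGF2BP3. Over all libraries it made up 23 of 1607 reads of MIR224, or 1.43% (95% exact Clopper-Pearson interval 0.909% to 2.14%). miR-452-3p was less one-sided, with 68 of 699 reads of MIR452, or 9.73% (7.63% to 12.2%), and its share lay between 5.00% and 12.2% in each library. Its reads were 6 and 3 in siC, 23 and 13 in siIGF2BP1, 5, 3 and 3 in siIGF2BP2 and 2, 5 and 5 in siIGF2BP3. By group the 3p share was 1.4%, 1.79%, 1.03% and 0.755% for MIR224 and 7.83%, 10.1%, 9.73% and 10.3% for MIR452, in siC, siIGF2BP1, siIGF2BP2 and siIGF2BP3. By limma neither 3p arm passed in the comparisons without siIGF2BP1, where 3.15% to 10.6% of all miRNAs passed. There 0 also passed at an unadjusted p under 0.05, and edgeR tested neither because of their few reads. For comparisons with siIGF2BP1 no pass is counted, because the 3p arms share their hairpins with members chosen on those libraries. The log2 fold change in siIGF2BP1 against siC was 1.18 for miR-224-3p and 1.08 for miR-452-3p, on reads too few for a narrow interval.

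The balance of the 2 hairpins was measured as reads of miR-224-5p per read of miR-452-5p, a ratio that no scaling of a library can change. It was 1.86 and 2.11 in siC, 2.32 and 2.98 in siIGF2BP1, 3.15, 2.45 and 2.79 in siIGF2BP2 and 1.87, 2.83 and 2.76 in siIGF2BP3. The siC libraries had the lowest and the third lowest ratio, and siIGF2BP3 replicate 1 lay between them. As a share of the pair's reads, miR-224-5p made up 65.0% (95% exact Clopper-Pearson interval 56.5% to 72.9%) in siC C2 and 75.9% (68.7% to 82.1%) in siIGF2BP2 replicate 1, the lowest and the highest share, and these intervals overlap. The mean log2 ratio was 0.98 ± 0.13 in controls and 1.4 ± 0.26 after IGF2BP1 knockdown (SD, n = 2 each). It was 1.48 ± 0.18 after IGF2BP2 knockdown and 1.29 ± 0.34 after IGF2BP3 knockdown (SD, n = 3 each).

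For siIGF2BP2 against siC the log2 ratio differed by 0.49 with no overlap (two-sided exact permutation test, p = 0.2, the smallest that this design allows). For siIGF2BP3 against siC it differed by 0.31 (exact permutation p = 0.4), and for siIGF2BP2 against siIGF2BP3 by 0.19 (exact permutation p = 0.6, where 0.1 is the smallest possible). Adjusted over 6 comparisons each p was 0.8. For siIGF2BP1 the difference in log2 ratio was 0.41 against siC, with no overlap, -0.080 against siIGF2BP2 and 0.11 against siIGF2BP3. With so few libraries no comparison could reach 0.05, so these tests do not bear on whether the balance of the pair changed. Without siIGF2BP1 replicate 2 the difference of siIGF2BP1 from siC was 0.23, and without siIGF2BP3 replicate 2 that of siIGF2BP3 from siC was 0.20. Adapter ligation favours some small RNA ends, so the ratio is one of reads, not of molecules.

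**Figure D4:**
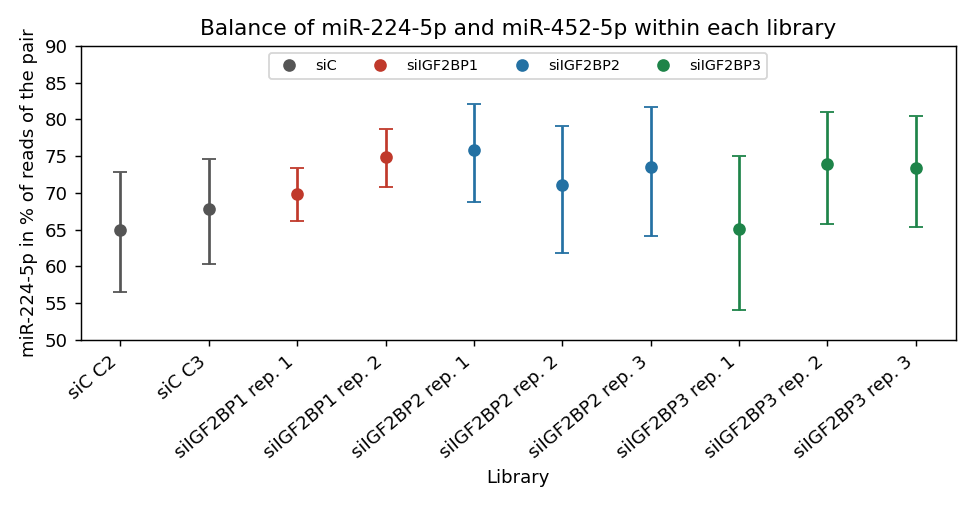
Share of miR-224-5p among the reads of miR-224-5p and miR-452-5p (y axis, percent, starting at 50) in each library (x axis), with 95% exact Clopper-Pearson intervals that cover counting error only. The shares run from 65.0% in siC C2 to 75.9% in siIGF2BP2 replicate 1.

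Among 312 other miRNAs with a mean normalised count of at least 10, the profiles most like each member over the 10 libraries were found by Pearson r of log2(value + 1). These r describe libraries that share their group, depth and scaling, and carry no p. For miR-224-5p they were miR-210-3p (r = 0.968), a miRNA induced by hypoxia, miR-10a-5p (r = 0.958), from the HOXB cluster, and miR-181a-3p (r = 0.952), a minor arm of a miR-181a hairpin. The mean normalised count of miR-210-3p was 24.3 in controls, 153 after IGF2BP1 knockdown, and 25.3 and 19.7 after knockdown of IGF2BP2 and IGF2BP3. That of miR-181a-3p was 781, 1596, 786 and 504 in the same order. Both had the order of miR-224-5p, with siIGF2BP1 highest, siIGF2BP2 near siC and siIGF2BP3 lowest.

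For miR-452-5p the nearest were let-7d-5p (r = 0.923), miR-23b-3p (r = 0.907) and miR-27b-3p (r = 0.901). The last 2 come from neighbouring hairpins of 1 cluster. The mean normalised count of miR-23b-3p was 60.8 in controls, 101 after IGF2BP1 knockdown, and 29.7 and 21.3 after knockdown of IGF2BP2 and IGF2BP3. That of miR-27b-3p was 2481, 3738, 1728 and 1245 in the same order. Like miR-452-5p, both had lower means in siIGF2BP2 and siIGF2BP3 than in siC. Between the members r was 0.890, which placed miR-452-5p at rank 8 for miR-224-5p and miR-224-5p at rank 4 for miR-452-5p.

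**Figure D5:**
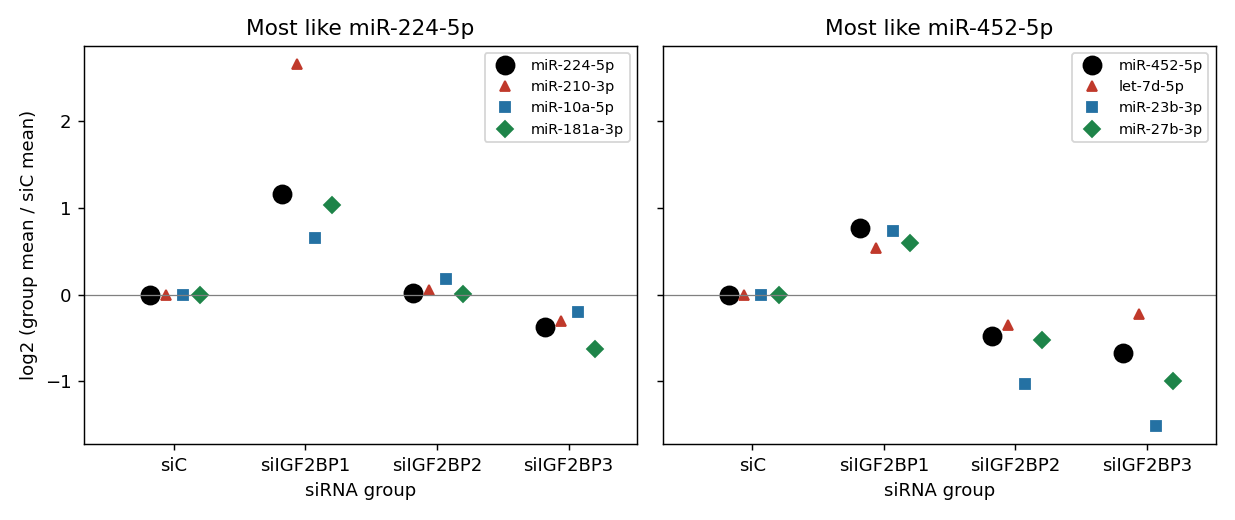
Log2 ratio of each group's mean normalised read count to the siC mean (y axis) for miR-224-5p and miR-452-5p (black circles) and the 3 miRNAs most like each, by siRNA group (x axis); no error is drawn, and siC is 0 by construction. miR-224-5p and miR-181a-3p lie near 0 in siIGF2BP2, whereas miR-452-5p and its 3 nearest lie below 0 there.

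Of 11 listed Xq28 miRNAs outside GABRE, 7 had a read and 6 were tested. By limma 0 passed in any of the 6 comparisons, where 2.47% to 14.8% of all miRNAs passed, nor did any of the 3 that edgeR tested. With 6 tested, 0 is near those shares. At an unadjusted p under 0.05 limma had 2 in siIGF2BP3 against siC, 1 each in siIGF2BP1 against siIGF2BP2 and siIGF2BP3, and 0 in the other comparisons. Their median log2 fold change in siIGF2BP1 against siC was -0.33, against 0.10 for all miRNAs tested. Of the 6, miR-105-3p, miR-767-3p and miR-664b-3p had only 16, 4 and 4 reads over all libraries. The counts thus do not set these miRNAs apart, and the difference in median was not tested. The best measured was miR-767-5p, from a hairpin in GABRA3, another GABA-A receptor subunit gene. Its mean normalised count was 97.1 ± 1.99 in controls and 115 ± 25.4 in siIGF2BP1 (SD, n = 2 each), and 125 ± 7.13 and 128 ± 9.77 in siIGF2BP2 and siIGF2BP3 (SD, n = 3 each), so siIGF2BP1 was not its highest group. Its neighbour miR-105-5p had means of 17.4, 15.2, 11.1 and 14.1 in the same order. miR-664b-5p, with 124 reads over all libraries, had means of 20.0, 8.39, 20.8 and 20.7. Unlike the pair it was lowest in siIGF2BP1, at 7.93 and 8.84, where its lowest value in any other group was 11.3. It was the miRNA with an unadjusted p under 0.05 by limma in siIGF2BP1 against siIGF2BP2 and siIGF2BP3, but it did not pass.

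Over a wider list of 50 mature miRNAs from Xq26 to Xq28 without the arms of MIR224 and MIR452, 20 were tested. In siIGF2BP1 against siC, 3 of the 20 were higher and 0 lower, where 2.14% of all miRNAs were higher, and their median log2 fold change was -0.10. The 3 were miR-424-3p (log2 fold change 1.88), miR-424-5p (1.47) and miR-504-5p. Of these, miR-424-3p and miR-424-5p are arms of 1 hairpin, so they are not separate counts. All 8 reads of miR-504-5p lay in the 2 siIGF2BP1 libraries, the deepest ones. It met the filter only through the group where it was high, so its place in this count carries no weight. miR-424-5p, a member of the miR-16 seed family, had a mean normalised count of 134 ± 14.2 in controls and 372 ± 23.7 in siIGF2BP1 (SD, n = 2 each). It was 211 ± 41.6 and 139 ± 22.7 in siIGF2BP2 and siIGF2BP3 (SD, n = 3 each). In siIGF2BP2 against siC 1 was higher (miR-424-3p, log2 fold change 0.71) and 1 lower (miR-363-3p), beside 1.24% and 7.76% of all miRNAs. In siIGF2BP3 against siC 0 were higher and 1 lower (miR-363-3p), beside 1.91% and 8.66%. miR-363-3p had a mean normalised count of 9.77 in siC and 5.21 in siIGF2BP1 and was at 0 in all 6 libraries of the other groups. It too met the filter only through the groups where it was high, so its place in these counts carries no weight. In siIGF2BP2 against siIGF2BP3 1 was higher (miR-424-3p, log2 fold change 0.79) and 0 lower, beside 1.69% and 1.46%. Against siIGF2BP2 and against siIGF2BP3, siIGF2BP1 had 4 higher and 0 lower each, where 11.8% and 12.3% of all miRNAs were higher. The 4 again included miR-504-5p, and also miR-363-3p. Both had no read in siIGF2BP2 or siIGF2BP3, so neither carries weight in this count. The rest were miR-424-3p and miR-424-5p, the arms of 1 hairpin, so the 4 are not separate miRNAs to set beside those shares. The medians were 0.38 and 0.40, beside 0.22 and 0.16 for all miRNAs tested.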

How the data were processed

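Small RNA was sequenced from 10 ES-2 libraries. Per the submitters' processing notes the authors worked on the build hg19 with Bowtie2 2.2.4, cutadapt 1.6, edgeR 3.12 and featureCounts 1.4.6. Per the labels' protocols, RNA was extracted with TRIZOL and libraries were made with a TruSeq small RNA kit and size selected. The sources used here give no settings, scaling method or miRNA annotation release. The authors deposited a normalised signal per miRNA and library, with log2 fold changes, p-values and false discovery rates of their own. One read is worth 0.803 to 2.00 of this signal, by library, and 100% of values came to whole reads within 0.01 reads, so reads and depth were recovered. Rows of further genomic copies (218 of 2794) were summed into 2576 miRNAs. The design text and labels set the groups. Neither of the 2 control columns names its control sample, so they are called siC C2 and siC C3. No label speaks of separate cultures, and p-values then measure only the spread between libraries, which may be technical.

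edgeR had been planned for counts and limma for normalised values, and since the table held the latter, all 4 groups were fitted together on log2(value + 1) by limma 3.58.1 in R 4.3.3, with the trend option. The filter asked for 2 or more libraries with a value of 1 or more, which left 889 miRNAs, and p-values were adjusted by Benjamini-Hochberg with a threshold of 0.05. The added 1 makes the fold changes of low miRNAs too small. Standard errors and intervals are from this fit, and the intervals are unadjusted. Ratios were tested by two-sided exact permutation (scipy 1.17.1). The fits were also run on simulated data that held no difference between the source names, and nothing in the report rests on that outcome. Alternatives were other scalings, pseudocounts of 0.1 and 5, other filters, edgeR 4.0.16 and DESeq2 1.42.0 on recovered reads, 2 groups only, the replicate block, and leaving out each library. Leaving marker miRNAs out of the adjustment was chosen after seeing the data.

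Named miRNAs were both members, their other arms, miRNAs that share a seed, Xq28 miRNAs outside GABRE, the 3 most alike by Pearson r with a mean of at least 10, and some of each list. The members and lists were chosen with earlier results of these data known.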

Additional observations from a re-analysis of the deposited data

How the results depend on the processing

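Leaving out marker miRNAs changed only the set over which p-values were adjusted, and the fit was not redone. It thus cannot show whether the marker difference between the source names affected the members. In the comparisons without siIGF2BP1 no call of either member changed. With upper-quartile scaling, the log2 fold change of miR-224-5p in siIGF2BP1 was 0.93 against siC and 0.44 against siIGF2BP2, and that of miR-452-5p was 0.52 against siIGF2BP2 and 0.61 against siIGF2BP3. With the deposited scaling these values were 1.15, 1.13, 1.20 and 1.41 in the same order, and no call is given for them. For miR-224-5p in siIGF2BP1 against siIGF2BP3 it was 0.72, and for miR-452-5p it was -0.088 in siIGF2BP3 against siC and 0.089 in siIGF2BP2 against siIGF2BP3. That scaling turned the sign of miR-224-5p in siIGF2BP3 against siC (0.22) and of miR-452-5p in siIGF2BP2 against siC (0.000959). The near-zero value of miR-224-5p in siIGF2BP2 against siC changed sign with TMM (-0.11), median of ratios (-0.058), library totals (-0.012), edgeR (-0.039) and DESeq2 (-0.042). edgeR on recovered reads called miR-452-5p in siIGF2BP3 against siC (-0.80).

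Leaving out 1 library at a time gave log2 fold changes of 1.06 to 1.23 for miR-224-5p in siIGF2BP1 against siC, -0.10 to 0.12 in siIGF2BP2 against siC, and for miR-452-5p 0.46 to 0.999 in siIGF2BP1 against siC, 0.11 to 0.35 in siIGF2BP2 against siIGF2BP3 and 0.94 to 1.47 in siIGF2BP1 against siIGF2BP2. The difference in log2 ratio then ranged from 0.23 to 0.59 (siIGF2BP1 against siC), 0.20 to 0.50 (siIGF2BP3 against siC), -0.0087 to 0.29 (siIGF2BP2 against siIGF2BP3), -0.26 to 0.10 (siIGF2BP1 against siIGF2BP2) and -0.088 to 0.29 (siIGF2BP1 against siIGF2BP3). Where a group was left with 1 library, that library was assumed to vary like the other groups.

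The number of miRNAs called in siIGF2BP1 against siC was 22, and 10 with the upper quartile, 52 with a mean of at least 10 (fewer miRNAs tested), 42 with edgeR, 35 with DESeq2 and 10 with 2 groups only. In siIGF2BP2 against siC it was 80, and 158 with the upper quartile, 49 with a mean of at least 10 and 52 with edgeR. In siIGF2BP3 against siC it was 94, and 203 with the upper quartile. In siIGF2BP2 against siIGF2BP3 it was 28, and 17 with the upper quartile. In siIGF2BP1 against siIGF2BP3 it was 132, and 223 with the upper quartile. edgeR called 64, 40, 85 and 124 in siIGF2BP3 against siC, siIGF2BP2 against siIGF2BP3, and siIGF2BP1 against siIGF2BP2 and siIGF2BP3. Without 1 library the counts ran from 2 (without siIGF2BP1 replicate 2; 3 without siC C2, 8 without siIGF2BP1 replicate 1) to 25, 53 (without siIGF2BP2 replicate 2 or 3) to 91, 70 to 105, 14 (without siIGF2BP2 replicate 2) to 22, 66 (without siIGF2BP1 replicate 2; 120 with all) to 125 and 92 to 140, in the order of the comparisons of the report. The cause was not tested except where stated.

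With the replicate block, fitted to the knockdown libraries alone, miR-224-5p in siIGF2BP2 against siIGF2BP3 stayed at 0.39 (adjusted p = 0.366 by limma). There miR-452-5p stayed at 0.20 (adjusted p = 0.743 by limma). The block left 10 calls in that comparison against 21 in the same libraries without it. Same-numbered libraries of those groups correlated at -0.12, -0.16 and -0.04 in their deviations over 313 miRNAs, not every library correlated best with its own number, and the numbers were not taken as pairs. Depth limits the pair most through miR-452-5p, with 28 to 57 reads in 8 libraries.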
